A study of Capra hircus with 20 samples.

Results

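Endothelial and blood-brain barrier genes were followed through postnatal development in the goat hypothalamus. The 10 genes (CLDN5, PECAM1, CDH5, FLT1, KDR, TEK, SLC2A1, MFSD2A, ABCG2 and VWF) were chosen by symbol for what they are known to do, with earlier results of these data known. All 10 were found by their NCBI gene number among the 21071 genes of the deposited data, and all 10 were among the 16771 genes tested. The tissue came from 20 female Jining grey goats aged 1, 60, 120 and 180 days, named D1, M2, M4 and M6, with 5 goats at each age. The labels name no treatment, and each goat gave a separate library from the hypothalamus, depleted of rRNA and strand-specific. The values are FPKM, the fragments of a gene scaled by its length and by library size, so levels may be compared between genes.

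The blood-brain barrier is formed by the endothelial cells that line brain capillaries. These cells are sealed to each other by tight junctions, carry few transport vesicles, and move nutrients in and drugs out through dedicated transporters. Pericytes, the basement membrane, astrocyte end-feet and signals such as VEGF, angiopoietins and Wnt ligands act on the same cells. In the median eminence, a part of the hypothalamus, the capillaries are fenestrated, and hormones leave the brain there.

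The genes lie apart in the goat genome (assembly ARS1.2). CDH5 is on chromosome 18 (35395280 to 35436633), PECAM1 on chromosome 19 (48136219 to 48202952), FLT1 on chromosome 12 (54897721 to 55105201) and VWF on chromosome 5 (103110419 to 103260848). KDR (71115093 to 71162022) and ABCG2 (36987765 to 37119019) are both on chromosome 6. SLC2A1 (17438803 to 17472481) and MFSD2A (14667314 to 14680021) are both on chromosome 3. CLDN5 is on a scaffold not assigned to a chromosome (375574 to 376856). TEK, on chromosome 8 (17003553 to 17103247), overlaps the locus LOC106502388, and SLC2A1 overlaps LOC102183480, so how reads were shared with these neighbours is uncertain.

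Some facts of the whole series bear on these genes. FPKM summed to between 260199 and 377479 per library. The study reports read totals per library, but the reads behind each value were not worked out here. The hypothalamic markers varied widely between goats: the summed FPKM of NKX2-1, SIM1, AVP, OXT, HCRT, PMCH and TRH ranged from 2.84 to 522 in D1 libraries, 5.21 to 35.2 in M2, 1.13 to 489 in M4 and 5.24 to 911 in M6. NKX2-1 was listed at 0 in 4 libraries, and OXT and HCRT in 6 each. Neuron markers (6 genes) summed to between 68.9 FPKM in M6 replicate 3 and 2592 in M4 replicate 1. Oligodendrocyte markers (6 genes) summed to between 443 FPKM in M4 replicate 1 and 14712 in D1 replicate 3. The libraries M2 replicate 1, M2 replicate 3 and M6 replicate 3, which had a low mapping rate, were kept, and the comparisons are also given without them where this matters.

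All 10 genes were detected in all 20 libraries. In order of their mean FPKM over the libraries they were ABCG2 (43.0), SLC2A1 (29.6), CLDN5 (26.6), PECAM1 (12.4), KDR (8.39), MFSD2A (7.55), FLT1 (6.58), TEK (5.73), CDH5 (3.52) and VWF (2.38). The neighbours in this order were compared within each library by a 2-sided permutation test that flipped the sign of the log2 ratio in 100000 resamples, with Benjamini-Hochberg adjustment over the 9 pairs of neighbours. ABCG2 was above SLC2A1 in 17 of 20 libraries, with a mean log2 ratio of 0.56 ± 0.50 (SD; adjusted permutation p = 0.00042). CLDN5 was above PECAM1 in 19 of 20 libraries and PECAM1 above KDR in 18 of 20 (adjusted permutation p = 0.00018 for both). TEK was above CDH5 in 17 of 20 libraries (adjusted permutation p = 0.00112). SLC2A1 was above CLDN5 in 13 of 20 libraries and CDH5 above VWF in 15 of 20 (adjusted permutation p = 0.0386 for both). The log2 ratio of SLC2A1 to CLDN5 averaged -0.04 at D1 and 0.08 at M2, against 0.62 at M4 and 0.55 at M6. These tests pooled the 4 ages, and the order of the genes was taken from the same values. The neighbouring pairs among KDR, MFSD2A, FLT1 and TEK were not separated, with adjusted permutation p of 0.251 for KDR and MFSD2A, 0.147 for MFSD2A and FLT1, and 0.141 for FLT1 and TEK. ABCG2 was the highest of the 10 in 17 libraries, and CLDN5 was the highest in D1 replicate 1, M2 replicate 3 and M6 replicate 5.

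**Figure D1:**
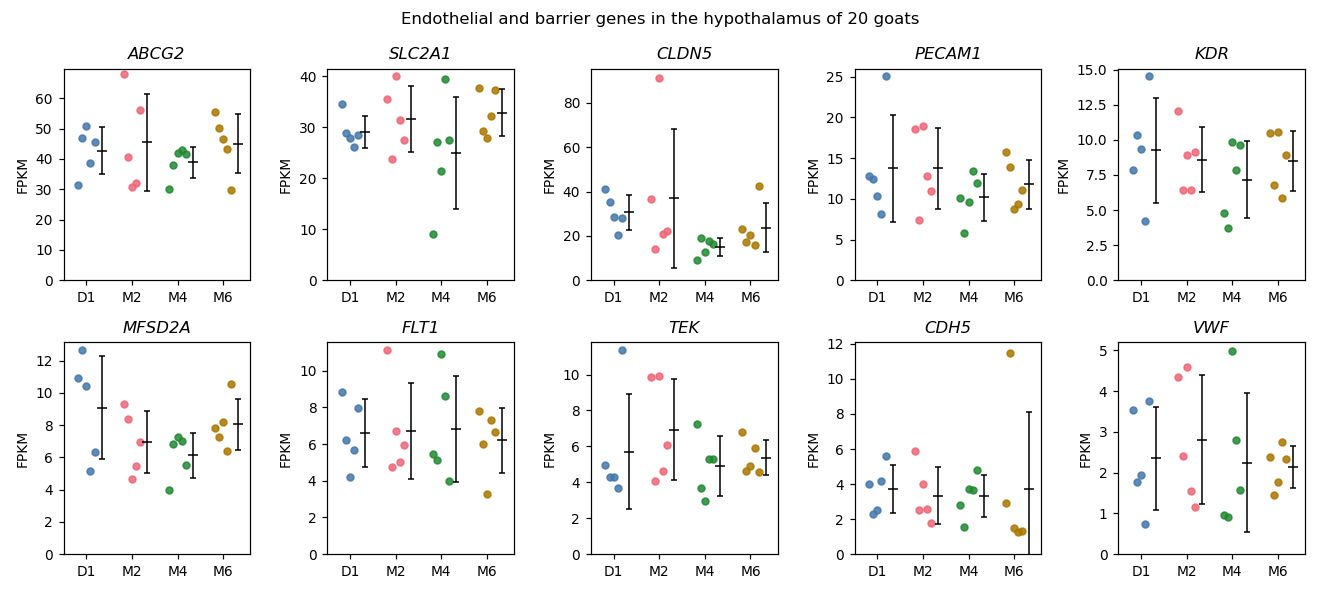
FPKM of the 10 genes (linear axis from 0, a separate scale for each gene) by stage. Each point is the library of 1 goat, in order of replicate number, and the black mark with bars is the mean ± SD of the 5 libraries (the bar of CDH5 at M6 is cut at 0). The 5 M4 libraries of CLDN5 sit between 9.26 and 18.9, below all 5 D1 libraries, and for the other 9 genes the points of all stages overlap.

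CLDN5 encodes claudin-5, the main sealing protein of the tight junctions of brain endothelium. Its FPKM was 41.2, 35.1, 28.3, 20.4 and 28.0 in the 5 D1 libraries and 36.5, 14.2, 91.1, 20.7 and 22.3 in the M2 libraries. It was 9.26, 18.9, 12.8, 17.6 and 16.6 in the M4 libraries and 23.0, 17.1, 20.2, 15.7 and 42.6 in the M6 libraries. The M4 libraries were all below the D1 libraries, whereas M2 and M6 overlapped D1, and the M2 mean was raised by replicate 3. From D1 to M6 the stage means were 30.6 ± 7.88, 37.0 ± 31.4, 15.0 ± 3.93 and 23.7 ± 10.9 FPKM (SD, n = 5). Fold changes were fitted with limma on log2(FPKM + 0.1) over all 20 libraries, and a gene was called when its Benjamini-Hochberg adjusted p over all genes tested was under 0.05 and its absolute log2 fold change was at least 1. The log2 fold change of CLDN5 in M4 vs. D1 was -1.03 (SE 0.382, 95% interval -1.82 to -0.23), with an unadjusted p of 0.0139 and a limma adjusted p of 0.458, so CLDN5 was not called. Separation of the 5 M4 from the 5 D1 libraries was found in 1.93% of all genes tested, and an unadjusted p under 0.05 in 8.71%. In M4 vs. M2 the log2 fold change of CLDN5 was -1.01 (SE 0.382, 95% interval -1.80 to -0.21, limma adjusted p = 0.509), and it was -0.60 without M2 replicate 3 and -0.36 without the 3 libraries of low mapping rate. It was -0.02 (SE 0.382) in M2 vs. D1, -0.42 (SE 0.382) in M6 vs. D1 and -0.49 (SE 0.312) in the mean of M2, M4 and M6 vs. D1.

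PECAM1 encodes an adhesion molecule at the contacts between endothelial cells, which platelets and leukocytes also carry. Its FPKM was 12.9, 12.4, 10.3, 8.17 and 25.0 at D1 and 18.6, 7.38, 18.9, 12.8 and 10.99 at M2. At M4 it was 10.1, 5.82, 9.65, 13.4 and 11.9, and at M6 it was 15.8, 13.8, 8.75, 9.35 and 11.1. D1 replicate 5 stood above the rest and all 4 stages overlapped. The log2 fold changes of PECAM1 vs. D1 were 0.02 at M2, -0.37 at M4 and -0.15 at M6, each with an SE of 0.305. Markers of platelets were low throughout: PPBP, GP9, ITGA2B and GP1BB summed to at most 2.72 FPKM in any library, and PPBP was listed at 0 in 19 of 20.

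CDH5 encodes VE-cadherin, the adherens junction protein of endothelium. Its FPKM was 4.02, 2.32, 2.50, 4.16 and 5.59 at D1 and 5.87, 2.50, 3.98, 2.56 and 1.80 at M2. The M4 libraries held 2.79, 1.57, 3.69, 3.64 and 4.82, and at M6 it was 2.91, 11.5, 1.49, 1.26 and 1.34. In M6 the replicate 2 library was far above the other 4, of which replicates 3, 4 and 5 were the lowest of all 20 libraries. The log2 fold changes of CDH5 vs. D1 were -0.19 at M2, -0.18 at M4 and -0.51 at M6, each with an SE of 0.491, the largest of the 10 genes.

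The receptors for VEGF and the angiopoietins did not separate the stages. KDR, VEGF receptor-2, is the main signalling receptor for VEGF-A. Its FPKM was 7.85, 10.3, 9.36, 4.25 and 14.5 at D1 and 12.1, 6.46, 8.94, 6.42 and 9.10 at M2. In M4 the values were 4.82, 3.75, 9.85, 7.85 and 9.61, and at M6 it was 10.5, 6.79, 10.6, 5.87 and 8.91. The D1 libraries of KDR held its highest value, in replicate 5, and a value near the lowest, in replicate 4. Its log2 fold changes vs. D1 were -0.04 at M2, -0.36 at M4 and -0.05 at M6 (SE 0.317).

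FLT1, VEGF receptor-1, binds VEGF-A strongly and acts largely as a decoy. Its FPKM was 8.86, 6.23, 4.22, 5.69 and 7.98 at D1 and 11.1, 4.75, 6.69, 5.00 and 5.94 at M2. At M4 its FPKM was 5.46, 5.12, 10.9, 8.64 and 3.97, and at M6 it was 7.78, 6.003, 3.25, 7.31 and 6.66. The stage means of FLT1, from 6.20 at M6 to 6.82 at M4, differed by 1.10-fold, against 2.75-fold between the highest and lowest M4 libraries. Stage held 0.928% of the variance of FLT1, and its log2 fold changes vs. D1 were between -0.10 at M6 and -0.0015 at M2 (SE 0.310).

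TEK encodes TIE2, the angiopoietin receptor. Its FPKM was 4.96, 4.28, 4.28, 3.67 and 11.3 at D1 and 9.86, 4.08, 9.94, 4.64 and 6.08 at M2. M4 gave 7.27, 3.66, 2.94, 5.32 and 5.32, and at M6 it was 6.80, 4.65, 4.91, 5.93 and 4.58. High values of TEK stood in D1 replicate 5 and in M2 replicates 1 and 3, and the stages overlapped. The log2 fold changes of TEK vs. D1 were 0.31 at M2, -0.15 at M4 and 0.03 at M6 (SE 0.321), and without the 3 libraries of low mapping rate the first was -0.094.

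The transporters were the most abundant group. SLC2A1 encodes GLUT1, which brings glucose across the barrier. Its FPKM was 34.4, 28.8, 27.8, 26.1 and 28.4 at D1 and 35.4, 23.7, 39.9, 31.4 and 27.5 at M2. In the M4 goats it was 9.11, 27.1, 21.4, 39.5 and 27.5, and at M6 it was 37.7, 29.1, 27.9, 32.1 and 37.3. M4 held both the lowest library, replicate 1, and a library near the highest, replicate 4. Its stage means from D1 to M6 were 29.1 ± 3.16, 31.6 ± 6.39, 24.9 ± 11.02 and 32.8 ± 4.53 FPKM (SD, n = 5). Its log2 fold changes vs. D1 were 0.10, -0.36 and 0.17 in this order of stages (SE 0.268).

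MFSD2A transports lysophosphatidylcholine with docosahexaenoic acid into the brain and holds down vesicle transport in barrier endothelium. Its FPKM was 10.9, 12.7, 10.4, 5.16 and 6.31 at D1 and 9.30, 8.38, 4.66, 5.45 and 6.97 at M2. The M4 values were 3.95, 6.85, 7.24, 7.01 and 5.53, and at M6 it was 7.79, 7.26, 8.22, 6.40 and 10.6. Replicates 1, 2 and 3 of D1 were among the 4 highest of the 20 libraries, while replicates 4 and 5 of D1 lay within the range of M2. The log2 fold change of MFSD2A was -0.35 in M2 vs. D1, -0.52 in M4 vs. D1 (95% interval -1.07 to 0.03, unadjusted p = 0.063, limma adjusted p = 0.600) and -0.11 in M6 vs. D1, each with an SE of 0.263.

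ABCG2 pumps drugs and other substrates back to the blood. Its FPKM was 31.3, 46.9, 50.8, 38.5 and 45.7 at D1 and 67.9, 40.8, 30.9, 32.0 and 56.0 at M2. For M4 it was 30.2, 37.9, 41.9, 43.0 and 41.5, and at M6 it was 55.6, 50.2, 46.4, 43.3 and 29.9. ABCG2 varied least of the 10 genes: the highest library, M2 replicate 1, was 2.27-fold above the lowest, M6 replicate 5. Its log2 fold changes vs. D1 were 0.05 at M2, -0.12 at M4 and 0.07 at M6 (SE 0.223).

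VWF encodes von Willebrand factor, a clotting protein stored by endothelial cells and platelets and more abundant in larger vessels. Its FPKM was 3.53, 1.76, 1.94, 0.748 and 3.77 at D1 and 4.35, 2.40, 4.59, 1.55 and 1.15 at M2. M4 libraries gave 0.950, 0.922, 4.97, 2.81 and 1.58, and at M6 it was 2.38, 1.44, 1.77, 2.74 and 2.33. The M6 libraries lay closest together and the M4 libraries spread over 5.39-fold. The log2 fold changes of VWF vs. D1 were 0.25 at M2, -0.15 at M4 and 0.03 at M6 (SE 0.489), and without the 3 libraries of low mapping rate the first was -0.31.

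None of the 10 genes passed the test in any comparison. In M2 vs. D1, 0 of 10 were called by limma, against 0% of all genes tested. In M4 vs. D1 it was 0 of 10 against 0.0537%, in M6 vs. D1 0 of 10 against 0.00596%, and in the mean of M2, M4 and M6 vs. D1 0 of 10 against 0.0596%. In M4 vs. M2, M6 vs. M4 and M6 vs. M2 it was 0 of 10 against 0%, and in the limma F test for any difference among the 4 stages 0 of 10 against 0.00596%. The counts at an unadjusted p under 0.05 were 1 of 10 in M4 vs. D1 and in M4 vs. M2 (8.68% of all genes) and 0 of 10 in M2 vs. D1 (15.6%), M6 vs. D1 (7.41%), M6 vs. M4 (6.87%), M6 vs. M2 (6.14%) and the mean of later stages vs. D1 (11.7%). In the F test it was 1 of 10 (10.4%), and the gene was CLDN5 each time (F test unadjusted p = 0.0458, limma adjusted p = 0.474). Groups of libraries that did not overlap were found for 1 of 10 genes in M4 vs. D1 and for 0 of 10 in M2 vs. D1 (3.82% of all genes), M6 vs. D1 (2.84%), M4 vs. M2 (1.09%), M6 vs. M4 (0.775%) and M6 vs. M2 (0.757%). With such low shares among all genes, counts of 0 or 1 in 10 say little about the list.

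The direction of the fold changes was then compared between the genes. In M4 vs. D1 all 10 log2 fold changes were below 0, with a median of -0.27, against -0.07 over all genes tested. The size of this median depended on single libraries: it was -0.11 without D1 replicate 5, -0.13 without M4 replicate 2 and -0.44 without D1 replicate 4. It was -0.54 with the mapping rate as a covariate, -0.73 with the replicate block added to it, -0.16 under library quality weights and -0.20 with quantile normalization, where 8 of 10 were below 0. FLT1 was also above 0 with a pseudocount of 1 and under median-ratio scaling, and CDH5 was under library quality weights. The genes were mostly positively correlated over the libraries, so their signs are not independent, and the share of all genes below 0 was not worked out. In M2 vs. D1, 5 were above and 5 below 0 (median 0.01, all genes -0.07), but without the 3 libraries of low mapping rate all 10 were below 0 (median -0.30). In M6 vs. D1, 4 were above and 6 below 0 (median -0.08, all genes -0.05). Leaving out a library moved the median to between -0.11 (M2 replicate 1) and 0.15 (M2 replicate 2) in M2 vs. D1 and to between -0.30 (D1 replicate 4) and 0.095 (D1 replicate 5) in M6 vs. D1. These 3 comparisons share the D1 libraries. In M4 vs. M2, 9 of 10 were below 0 (median -0.36, all genes -0.02), and 7 of 10 were (median -0.08) without the 3 libraries. The M4 vs. M2 median was -0.19 without M2 replicate 1, -0.16 without M4 replicate 1 and -0.19 without M4 replicate 2, and it was -0.10 under library quality weights. In M6 vs. M4, 8 of 10 were above 0 (median 0.21, all genes 0.04; 0.097 without M4 replicate 2, 0.12 without M6 replicate 1 and 0.33 without M4 replicate 3 or 4). In M6 vs. M2, 3 of 10 were above 0 (median -0.14, 0.038 without M2 replicate 1), with 10 of 10 above 0 (median 0.27) without the 3 libraries. None of these differences was called. In these pieces of tissue, a difference in the number of endothelial cells and one in RNA per endothelial cell cannot be told apart. The part of the other cells in each piece was not tested.

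**Figure D2:**
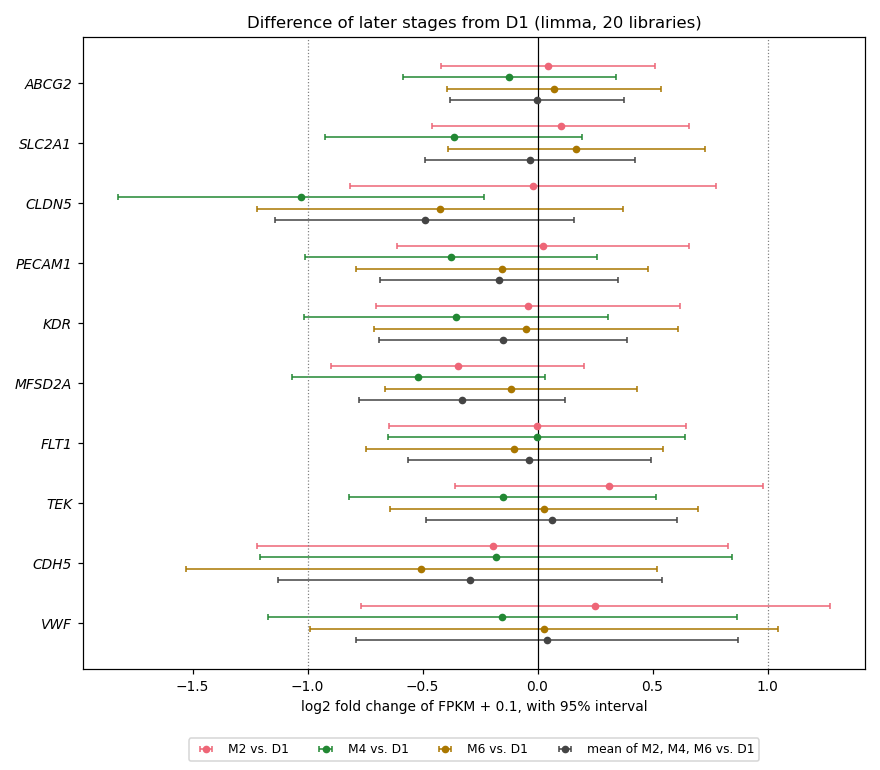
Log2 fold changes of FPKM + 0.1 (horizontal axis) for each of the 10 genes, with 95% intervals from limma, for M2, M4, M6 and their mean vs. D1. Dotted lines mark a log2 fold change of -1 and 1; the interval of CLDN5 in M4 vs. D1 (-1.82 to -0.23) lies below 0, and the other intervals hold 0.

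The width of the intervals differed between genes. For ABCG2, SLC2A1, FLT1 and TEK (4 of 10), the 95% intervals in M2, M4 and M6 vs. D1 all lay within -1 and 1 on the log2 scale. For ABCG2 they reached from -0.59 to 0.54. For the other 6 genes some interval reached past -1 or 1, and for CDH5 they reached from -1.53 to 0.84 and for VWF from -1.17 to 1.27.

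Most of the variation lay between goats of the same age. The median share of the variance that stage held was 9.84% for the 10 genes and 18.2% for all genes tested, and it ranged from 0.928% for FLT1 to 33.8% for CLDN5. The SD of log2(FPKM + 0.1) within a stage had a median of 0.51 for the 10 genes and 0.50 for tested genes with a mean of at least 1 FPKM, and it was lowest for ABCG2 (0.35) and highest for CDH5 (0.83). The stage means of CLDN5 differed by 2.46-fold, but its M2 libraries spread over 6.42-fold. For CDH5 the stage means differed by 1.13-fold and the M6 libraries by 9.09-fold.

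Several goats were high or low in most of the 10 genes at once. Each gene was standardized over the 20 libraries on the log2 scale, and the 10 values of a library were averaged. M2 replicate 1 had the highest average, 1.31 SD, and all 10 genes were above their own mean there. D1 replicate 5 (0.93 SD) and M2 replicate 3 (0.66 SD) followed, each with 8 of 10 genes above their mean. M2 replicates 1 and 3 were among the 3 libraries of low mapping rate. These averages, and the correlations below, were not recomputed without those 3 libraries. M4 replicate 1 (-1.18 SD, 1 of 10 above), M4 replicate 2 (-0.96 SD, 0 of 10) and D1 replicate 4 (-0.74 SD, 1 of 10) were the lowest. Markers of other cells were also high or low in some of these libraries, but not in all. Oligodendrocyte markers summed to 443, 938 and 962 FPKM in the last 3, which with M6 replicate 4 (649) were the 4 lowest, but M2 replicate 1, the highest in the 10 genes, came next with 2078. Neuron markers summed to 2592 FPKM in M4 replicate 1 and to 186 in M2 replicate 1, but their lowest sum (68.9) was in M6 replicate 3, where the average of the 10 genes was -0.33 SD. Microglia and macrophage markers summed to 252 FPKM in M2 replicate 1, the highest sum, and to 52.7 in M4 replicate 1, the lowest. They summed to 70.2 FPKM in M4 replicate 2 and to 107 in D1 replicate 4. Meningeal fibroblast markers (COL1A1, COL1A2, COL3A1, DCN and LUM) summed to 281 FPKM in D1 replicate 5 and 299 in M2 replicate 3, the 2 highest sums, and to 45.0 in M2 replicate 1. Their part in the result was not tested.

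**Figure D3:**
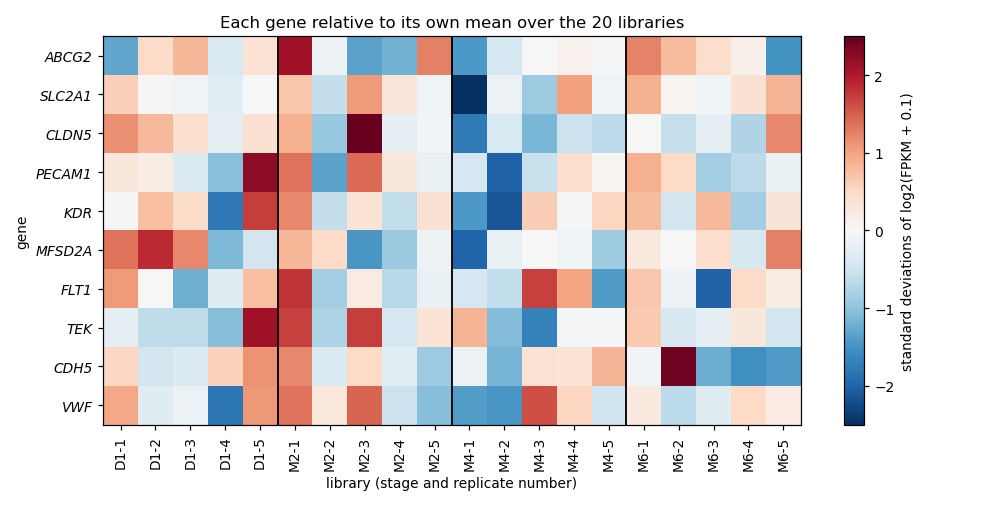
Each of the 10 genes (rows) in each of the 20 libraries (columns, grouped by stage), in SD of log2(FPKM + 0.1) from the mean of the gene, on a colour scale that ends at 2.5 SD. The column of M2 replicate 1 is above the mean in all 10 genes and that of M4 replicate 2 is below it in all 10, while the columns of a stage differ among themselves.

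Most pairs of the 10 genes were positively correlated. Of the 45 pairs, 41 had a Pearson's r above 0 over the 20 libraries, with a median of 0.32, and the median was 0.30 after the stage means were removed. P values came from 100000 permutations of the libraries and were adjusted over the 45 pairs. PECAM1 and TEK had the highest r of 0.777 (adjusted permutation p = 0.00315) and a Spearman's rho of 0.680 (adjusted permutation p = 0.0213), and r was 0.685 without the 2 libraries farthest from the median of PECAM1. FLT1 and VWF had an r of 0.643 (adjusted permutation p = 0.0259), a rho of 0.684 (adjusted permutation p = 0.0213) and an r of 0.652 without 2 libraries. These were the 2 pairs that passed by both measures. PECAM1 with KDR (r = 0.697, rho = 0.508) and KDR with VWF (r = 0.648, rho = 0.514) passed by r alone (adjusted permutation p = 0.0142 and 0.0259, against 0.110 for rho), and r was 0.475 and 0.453 without 2 libraries. CLDN5 with SLC2A1 (r = 0.654, rho = 0.636) and PECAM1 with SLC2A1 (r = 0.369, rho = 0.704) passed by rho alone (adjusted permutation p = 0.0341 and 0.0213, against 0.0559 and 0.264 for r). PECAM1 had the highest median r with the other 9 genes (0.52), and ABCG2 and CDH5 had the lowest (0.21 each). TEK and MFSD2A had the lowest r, -0.28.

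The genes whose levels followed the average of the 10 most closely were TGFBR2 (r = 0.912, rho = 0.830), ANO6 (r = 0.839), PODXL (r = 0.832), IL10RB (r = 0.819), MCAM (r = 0.813), KLF4 (r = 0.811), GATAD2A (r = 0.804), LRP5 (r = 0.800), SHE (r = 0.799) and PPFIBP2 (r = 0.798). These r are over the 20 libraries and are given as a description, and the libraries share their tissue makeup. TGFBR2 is a receptor for TGF-beta, PODXL encodes podocalyxin and MCAM encodes CD146, which are surface proteins found on endothelium among other cells. Without M4 replicate 1 and M2 replicate 1, the lowest and the highest library, r was 0.861 for TGFBR2, 0.730 for PODXL and 0.644 for GATAD2A. Taken singly, the closest gene was TCN2 for CLDN5 (r = 0.861), MYLK for PECAM1 (0.856), MCAM for KDR (0.887) and CLEC3B for TEK (0.859). It was ACSM1 for ABCG2 (r = 0.806), ZNF395 for VWF (0.849), LOC102188617 for SLC2A1 (0.880), LOC108634592 for MFSD2A (0.792) and WNK4 for CDH5 (0.641, the weakest).

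Other endothelial identity genes (TIE1, ERG, ROBO4, EMCN and others) had a median r with the average of the 10 genes of 0.54, and 16 of 17 were above 0, against a median of 0.02 over all genes tested. Vascular basement membrane genes had a median r of 0.60 (8 of 8 above 0) and pericyte and smooth muscle genes 0.48 (12 of 13 above 0). Other vessel and barrier lists were lower: 0.46 for other junction genes (7 of 10 above 0) and 0.43 for the Wnt and norrin pathway (9 of 12). The median r was 0.31 for VEGF and angiopoietin ligands and co-receptors (8 of 10) and 0.25 for other barrier transporters and receptors (10 of 16). For cells outside the vessel wall the median r was 0.55 for microglia and macrophage markers (7 of 7 above 0), 0.51 for oligodendrocyte markers (6 of 6), 0.43 for meningeal fibroblast markers (5 of 5) and 0.28 for astrocyte markers (4 of 6). It was -0.41 for neuron markers (0 of 6 above 0). The differences between these lists were not tested.

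**Figure D4:**
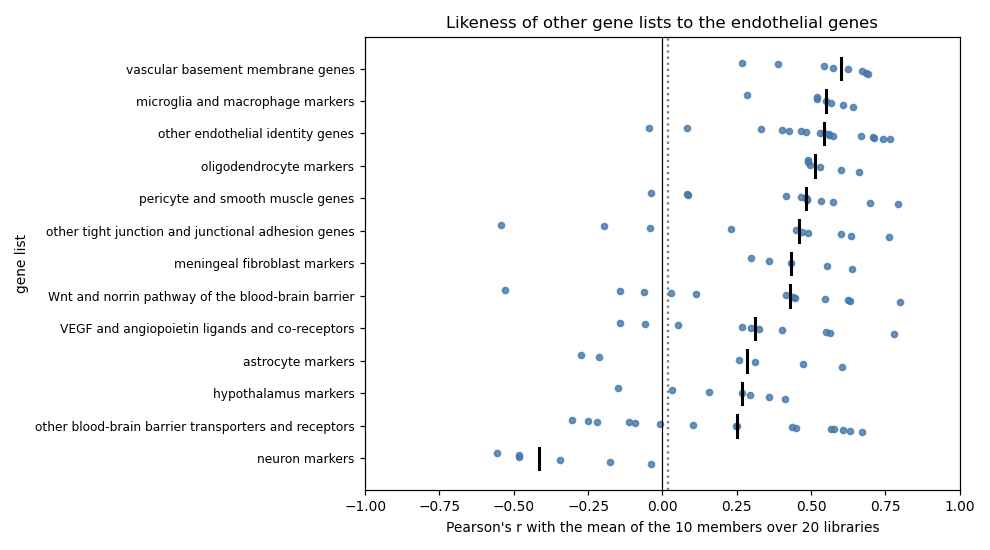
Pearson's r (horizontal axis) over the 20 libraries between each gene of a list (points) and the average of the 10 standardized endothelial genes, for 13 lists with at least 5 tested genes; the black bar is the median of the list and the dotted line that of all genes tested (0.02). Basement membrane genes stand highest (median 0.60) and neuron markers are all below 0 (median -0.41).

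Of 94 other genes of vessel and barrier listed by function, 88 were tested. By limma 0 of them were called in any comparison, against at most 0.0596% of all genes tested. For the mean of the later stages against D1, 11 of these 88 genes reached an unadjusted p under 0.05 (4 higher, 7 lower), where 11.7% of all genes did, and in M4 vs. D1 it was 12 (2 higher, 10 lower), where 8.71% did. PLVAP, the diaphragm protein of fenestrated endothelium, did not exceed 0.238 FPKM and was listed at 0 in 11 of 20 libraries. Among ligands and co-receptors, VEGFA had the largest log2 fold change above 0, with 3.20 ± 0.282 FPKM (SD, n = 5) in D1 libraries, 4.07 ± 0.684 in M2, 5.35 ± 1.52 in M4 and 4.68 ± 0.936 in M6. For the mean of the later stages this was a log2 fold change of 0.50 (SE 0.186, limma adjusted p = 0.305). ANGPT2, a ligand of TIE2, had the lowest, -0.56 (SE 0.308). In the Wnt and norrin pathway, which maintains the barrier, the lowest value was that of the ligand gene WNT7A, -0.89 (SE 0.484), and the highest that of the target gene AXIN2, 0.19 (SE 0.457).

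Among other junction genes CGN, which encodes cingulin, was highest, with a log2 fold change of 1.25 (SE 0.396, limma adjusted p = 0.237), and CLDN12 was lowest at -0.31 (SE 0.315). Among other transporters and receptors, the efflux pump gene ABCC1 was highest at 1.12 (SE 0.457, limma adjusted p = 0.353) and the taurine transporter gene SLC6A6 lowest at -0.72 (SE 0.288). From D1 to M6 the stage means of ABCC1 were 1.10 ± 0.128, 6.92 ± 4.90, 2.20 ± 2.29 and 2.06 ± 1.07 FPKM (SD, n = 5), and its log2 fold changes vs. D1 were 2.24 at M2, 0.39 at M4 and 0.71 at M6 (SE 0.560). In the basement membrane, the collagen gene COL4A1 was lowest at -0.73 (SE 0.276, limma adjusted p = 0.312) and LAMA5 highest at 0.32 (SE 0.427). Of the pericyte and smooth muscle genes, MYH11 was at 0.43 (SE 0.807) and KCNJ8 at -0.39 (SE 0.288), and of the endothelial identity genes SOX17 was at 0.67 (SE 0.407) and EMCN at -0.19 (SE 0.162). The leukocyte adhesion gene ICAM1, a marker of activated endothelium, was at 0.84 (SE 0.400, limma adjusted p = 0.423), and SELP at -0.33 (SE 0.488).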

How the data were processed

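The authors depleted the RNA of rRNA, made strand-specific libraries, trimmed reads with fastp, aligned them with HISAT2 2.0.5 to the goat genome ARS1.2 and assembled transcripts with StringTie 1.3.3b. The deposited values are FPKM per gene, and the strand setting behind them is not given in the sources used here. Without counts no counting error was computed, and precision comes from the SD of 5 libraries and the SE of the fit. Gene numbers were matched to symbols and positions in the RefSeq annotation of the same assembly (20610 of 21071 matched).

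A gene was tested when 5 or more of the 20 libraries had 0.1 FPKM or more (16771 genes). The log2(FPKM + 0.1) values entered a limma fit (version 3.58.1, R 4.3.3) of 4 stage groups with a variance trend, tested on simulated data. Benjamini-Hochberg adjustment covered every gene tested. Calls required adjusted p under 0.05 together with a log2 fold change of 1 or more in either direction. Permutation tests and correlations used Python 3.11.15, numpy 2.4.6, pandas 2.3.3 and scipy 1.17.1, and figures matplotlib 3.10.9. Groups came from the sample titles, and all 20 libraries were kept.

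The 10 genes and the other lists were chosen with earlier results of these data known. All 10 genes are given at every stage, with fold changes vs. D1. In other comparisons a fold change is given where the unadjusted p was under 0.05. Of each other vascular list, the top and bottom gene by fold change in the mean of the later stages vs. D1 are named, along with the 10 genes most like the average of the members and the closest gene to each, except that the closest gene to FLT1 is not reported here. PLVAP and ALAS2 were named after their values were seen. The alternatives were pseudocounts of 1 and 0.01, no filter or a filter on a mean of 1 FPKM, a fit of only the stages compared, quantile normalization, median-ratio scaling, no trend, quality weights per library, a replicate block, a mapping rate covariate (from the study's supplementary quality table), the block with that covariate, a call on adjusted p alone, 3 libraries of low mapping rate left out, and each library left out in turn.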

Additional observations from a re-analysis of the deposited data

Results flagged for a closer look

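In 5 of the 40 groups of 5 libraries (10 genes at 4 stages), the highest library stood apart from the other 4. Its gap over the range was more than Dixon's critical value of 0.71. The rule was applied to FPKM and not on the log2 scale, and CLDN5 in M2 passed it only narrowly (0.7102). For normally distributed values chance flags about 1 in 20 groups. The rate for FPKM was not computed, so 5 of 40 is not shown to exceed chance.

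CLDN5 was flagged in M2 replicate 3, at 91.1 FPKM against 36.5 in the next library, and in M6 replicate 5, at 42.6 FPKM against 23.0. CDH5 was flagged in M6 replicate 2, at 11.5 FPKM against 2.91. In that library the other 18 measured endothelial identity genes summed to 93.8 FPKM, within the range of 88.7 to 159 at M6. D1 replicate 5 was flagged for PECAM1, at 25.0 FPKM against 12.9, and for TEK, at 11.3 FPKM against 4.96.

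Markers of vessel walls and meninges were high in some of these libraries. Pericyte and smooth muscle genes summed to 292 FPKM in D1 replicate 5, where the D1 median was 105, and to 189 in M2 replicate 3, where the M2 median was 157. Meningeal fibroblast markers summed to 281 and 299 FPKM in the same libraries, against stage medians of 91.4 and 45.0. In M6 replicate 2 and M6 replicate 5 the meningeal markers summed to 30.4 and 33.9 FPKM, against a median of 33.9. Their part in the flagged values was not tested.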

How the results depend on the processing

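The count of members called was 0 in all 8 comparisons under the 14 alternatives other than leaving out libraries and under the 20 fits that left out a library each. The replicate numbers did not pair the goats: deviations from the stage means of same-numbered libraries had a median r of -0.011 (30 pairs, -0.25 to 0.43). With the replicate block, 0 members were called and the log2 fold change of CLDN5 in M4 vs. D1 was -1.03 (limma adjusted p = 0.485). Over all alternatives this value ran from -0.87 (without M4 replicate 1) to -1.37 (replicate block and mapping rate), with adjusted p from 0.123 (library quality weights) to 0.820. The smallest limma adjusted p of any member was 0.0592, for CLDN5 in the mean of the later stages vs. D1 under library quality weights. Of 564 member values under the other alternatives, 53 changed sign, and the cause was not tested. In the fit reported above, none of those that changed sign had an absolute log2 fold change above 0.31. Under the alternatives they reached -0.63, for VWF in the mean of the later stages vs. D1 with the mapping rate and the replicate block. Counts of calls over all genes depended on the setting. In M4 vs. D1 they ran from 0 to 65 (9 as reported), in M2 vs. D1 from 0 to 148 (0), in M6 vs. D1 from 0 to 95 (1), in the mean of the later stages from 0 to 223 (10) and in the F test from 0 to 128 (1), each highest under library quality weights. Leaving out a library moved them to at most 34, in the mean of the later stages without D1 replicate 4. Under library quality weights the other vascular genes SLC6A6 (M2 vs. D1, -1.03), APCDD1 (M4 vs. D1, -1.08, and M6 vs. D1, -1.01) and COL4A1 (M6 vs. D1, -1.17) were called. Under quantile normalization, the sign changed for CLDN5 (0.27), FLT1 (0.017) and KDR (0.027) in M2 vs. D1. The same setting changed it for FLT1 (0.041) and ABCG2 (0.0069) in M4 vs. D1 and for VWF (-0.037) in M6 vs. D1 and for SLC2A1 (0.16), ABCG2 (0.20) and VWF (-0.013) in the mean of the later stages vs. D1. Under median-ratio scaling, the sign changed for CLDN5 (0.050), FLT1 (0.066) and KDR (0.026) in M2 vs. D1. The same setting changed it for FLT1 (0.054) in M4 vs. D1 and for FLT1 (0.015), SLC2A1 (0.019) and ABCG2 (0.049) in the mean of the later stages vs. D1. Under library quality weights, the sign changed for PECAM1 (-0.23), SLC2A1 (-0.059) and VWF (-0.49) in M2 vs. D1. The same setting changed it for CDH5 (0.058) in M4 vs. D1 and for FLT1 (0.054) and VWF (-0.14) in M6 vs. D1 and for SLC2A1 (0.0074), ABCG2 (0.075) and VWF (-0.28) in the mean of the later stages vs. D1. With the mapping rate as a covariate, the sign changed for PECAM1 (-0.15), SLC2A1 (-0.14), ABCG2 (-0.11) and VWF (-0.53) in M2 vs. D1. The same setting changed it for ABCG2 (-0.038) and VWF (-0.52) in M6 vs. D1 and for VWF (-0.58) in the mean of the later stages vs. D1. With the mapping rate and the replicate block together, the sign changed for PECAM1 (-0.49), TEK (-0.0073), SLC2A1 (-0.46), ABCG2 (-0.25) and VWF (-0.59) in M2 vs. D1. The same setting changed it for TEK (-0.19), SLC2A1 (-0.22), ABCG2 (-0.13) and VWF (-0.56) in M6 vs. D1 and for TEK (-0.19) and VWF (-0.63) in the mean of the later stages vs. D1. Without the 3 libraries of low mapping rate, the sign changed for PECAM1 (-0.33), TEK (-0.094), SLC2A1 (-0.083), ABCG2 (-0.0075) and VWF (-0.31) in M2 vs. D1. The same setting changed it for FLT1 (0.11) in M6 vs. D1 and for TEK (-0.063) and VWF (-0.13) in the mean of the later stages vs. D1. With a pseudocount of 1, the sign changed for FLT1 (0.0027) in M4 vs. D1 and for VWF (-0.020) in M6 vs. D1. Leaving out each library in turn changed the sign of 82 of 820 values. Where this happened, the lowest and highest values were those of CLDN5 (-0.43 to 0.24), PECAM1 (-0.13 to 0.27), FLT1 (-0.20 to 0.12), KDR (-0.29 to 0.15), ABCG2 (-0.12 to 0.17) and VWF (-0.082 to 0.51) in M2 vs. D1. The ranges were those of CDH5 (-0.34 to 0.055), FLT1 (-0.19 to 0.17), TEK (-0.31 to 0.13) and VWF (-0.50 to 0.076) in M4 vs. D1. The ranges were those of PECAM1 (-0.31 to 0.088), FLT1 (-0.25 to 0.11), KDR (-0.30 to 0.14), TEK (-0.094 to 0.31), MFSD2A (-0.30 to 0.025), ABCG2 (-0.035 to 0.21) and VWF (-0.31 to 0.24) in M6 vs. D1. The ranges were those of PECAM1 (-0.33 to 0.074), FLT1 (-0.18 to 0.082), KDR (-0.40 to 0.038), TEK (-0.061 to 0.34), SLC2A1 (-0.10 to 0.076), ABCG2 (-0.11 to 0.066) and VWF (-0.29 to 0.26) in the mean of the later stages vs. D1. The reads behind each FPKM value were not worked out, which limits what can be said of low genes such as VWF. With 5 goats per stage, differences anywhere within the reported intervals remain compatible with the data.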

Other observations

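The ratio of 2 of the genes within a library does not depend on how the libraries are scaled. The log2 ratio of SLC2A1 to CLDN5 averaged -0.04 ± 0.26 in D1 libraries, 0.08 ± 0.77 in M2, 0.62 ± 0.43 in M4 and 0.55 ± 0.46 in M6 (SD, n = 5), and the ranges overlapped (-0.28 to 0.36 at D1, -0.02 to 1.16 at M4). The log2 ratio of MFSD2A to CLDN5 was -1.78 ± 0.31 at D1 and -1.27 ± 0.29 at M4. The ratio of MFSD2A to SLC2A1 was -1.74 ± 0.48 at D1 and -1.89 ± 0.53 at M4. CLDN5 to PECAM1 was 1.22 ± 0.60 at D1 and 0.56 ± 0.67 at M4. TEK to PECAM1 was the steadiest ratio listed, at -1.11 ± 0.33 over all 20 libraries. Within a stage, MFSD2A to CLDN5 varied most, with an SD of 1.3 at M2, followed by CDH5 to PECAM1, with an SD of 1.09 at M6. No test was run on the differences of these ratios between stages.

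Among the blood markers, ALAS2, the erythroid enzyme of heme synthesis, was called lower in the mean of the later stages vs. D1 (log2 fold change -3.01, SE 0.394, limma adjusted p = 0.00361). In that comparison 0 of the 10 endothelial genes were called, against 0.0596% of all genes tested. AHSP, the other erythroid gene tested, was not called. Levels were low: the 3 erythroid genes measured summed to between 1.52 and 3.72 FPKM in D1 libraries. They summed to 0 in M2 replicate 1, M4 replicate 3 and M4 replicate 4, so the size of the fold change depends on the added 0.1 FPKM. Calls over all genes in this comparison fell to 0 under some alternative, so the call of ALAS2 depended on the setting.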
